A study of Mus musculus with 5 samples.

Results

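The glypicans and syndecans are the core proteins of the heparan sulfate proteoglycans that cells carry on their surface, and all 10 of their genes, Gpc1 to Gpc6 and Sdc1 to Sdc4, were described here by gene symbol among the 21801 genes measured. RNA sequencing had been carried out on mouse neuroepithelial cells, the dividing epithelium of the early neural tube, which the series text calls purified and sets in the developing neocortex. The labels give 5 libraries of total RNA in a single group, replicates 1 to 5, with the cell type given as neural progenitor cells. Strain, genotype, embryonic age, the purification and whether the replicates came from separate animals are not stated in the sources used here, so every p-value below reflects the scatter of these libraries alone, which may be technical. With 1 group, the comparisons are between genes within a library, between each gene and a fixed level, and between libraries.

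Glypicans are tied to the outer face of the membrane by a glycosylphosphatidylinositol (GPI) lipid and carry their heparan sulfate chains close to it. Syndecans cross the membrane once and end in a short cytoplasmic tail that binds adaptor proteins and the cytoskeleton. The sulfated chains of both families bind growth factors and morphogens such as FGF, Wnt, Hedgehog and BMP proteins, and in neuroepithelium they are known for shaping the reception of these signals and the contact with the basement membrane.

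Levels are in FPKM, fragments for each kilobase of transcript and each 1000000 mapped reads, which is per length, so that genes may be compared. A level is given as mean ± SD over the 5 libraries (n = 5), and library values are given in the order of replicates 1 to 5. The log2 scale below is that of log2(FPKM + 1), except for differences between family sums, where no 1 is added. Spacing of the lowest values in each library implied roughly 20.6 to 28.4 times 1000000 mapped reads per library. The neural progenitor markers stood as labelled: 11 of 12 lay above 1 FPKM and none below (over all genes tested, 52.3% were called above and 41.4% below), led by the apical membrane protein Prom1 at 88.1 ± 10.96 FPKM. Markers of other cell types were also present in part. Of 12 mesenchyme markers 9 were above 1 FPKM and 1, Dcn, below, and they summed to 48.9, 85.1, 179, 145 and 148 FPKM, led by the matrix proteoglycan Lum. Of 9 surface ectoderm markers 6 were above, led by the keratin Krt18, and 1, Krt5, below (all 9 summed, 100.02 to 152 FPKM). Of 7 neural crest markers 5 were above, led by Tfap2b, and 2, Sox10 and Foxd3, below (all 7 summed, 21.4 to 44.6 FPKM). Of 10 neuron markers 6 were above, led by the tubulin Tubb3, and 3, Dcx, Rbfox3 and Elavl3, below (all 10 summed, 94.0 to 133 FPKM). Of 11 endothelial and blood markers 1, Pecam1, was above and 4 were below (all 11 summed, 8.05 to 19.8 FPKM). No marker of these lists was listed at 0 in all 5 libraries. In bulk RNA fewer cells of a type and less RNA per cell cannot be told apart.

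Of the 10 genes, 9 lay above 1 FPKM and 1, Gpc5, lay below it (limma's moderated test on log2(FPKM + 1), two-sided, Benjamini-Hochberg adjusted p under 0.05 over all genes tested). Over the 19706 genes tested, 52.3% were called above and 41.4% below. All 10 passed the filter of a value above 0 in at least 1 library, and each was above 0 in all 5. The median of the members' differences from 1 FPKM was 2.81 on the log2(FPKM + 1) scale, beside 0.45 over all genes tested. Both counts were the same under every pseudocount, scaling, filter and variance setting tried and without any 1 library. Against a level of 2 FPKM, Sdc3 was called neither way.

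**Figure D1:**
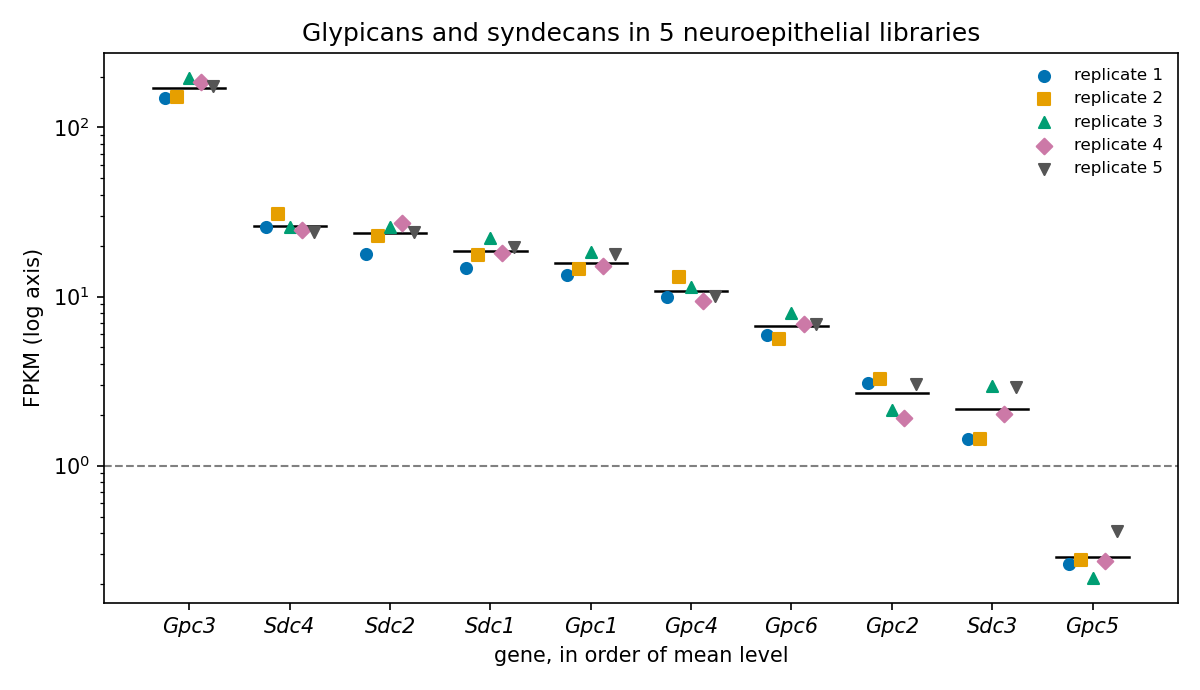
FPKM on a log axis for each glypican and syndecan gene in replicates 1 to 5, ordered by mean level; points are libraries, black bars are means and the dashed line is 1 FPKM. Gpc3 stands alone at 149 to 196 FPKM, Gpc5 is the only gene below the line, and the other genes lie between 1.43 and 30.8 FPKM.

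Gpc3 dominated the glypicans. The protein is an inhibitor of Hedgehog signalling and body growth, lost in the human overgrowth syndrome of Simpson, Golabi and Behmel. Gpc3 (ENSMUSG00000055653, chromosome X, 52272426 to 52613950, minus strand, GENCODE M21 on mm10) was at 149, 151, 196, 186 and 175 FPKM. All 5 libraries lay far above every other member, with replicates 1 and 2 lowest and replicate 3 highest. Its mean of 171 ± 20.9 FPKM was higher than that of 96.1% of all genes and exceeded 1 FPKM by 6.42 (log2 scale, SE 0.07, limma adjusted p = 3.14e-11). Gpc3 made up 80.4% to 84.6% of the summed glypican FPKM of a library.

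Gpc4, known for its part in FGF signalling at the anterior of the embryo and in convergent extension movements, is the neighbour of Gpc3 on chromosome X (ENSMUSG00000031119, 52053021 to 52165252, minus strand). The genes lie 107 kb apart on the same strand, with no annotated protein-coding gene between them. Gpc4 was at 9.92, 13.1, 11.5, 9.42 and 10.1 FPKM, highest in replicate 2, where Gpc3 was the second lowest. The ratio of the means was 15.9, and Gpc3 exceeded Gpc4 in every library, by 3.87 ± 0.28 (log2 scale, two-sided exact permutation of the signs of the 5 differences, p = 0.063, the smallest that 5 libraries allow).

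Gpc5 and Gpc6 are neighbours in the same way on chromosome 14, 400.1 kb apart with no annotated protein-coding gene between them, and both are very long genes. Gpc5 (ENSMUSG00000022112, 115092215 to 116525179, plus strand), which can enhance Hedgehog signalling, spans 1433 kb, and Gpc6 (ENSMUSG00000058571, 116925315 to 117976544, plus strand), a glypican of limb bone growth, spans 1051 kb. Gpc5 was at 0.261, 0.277, 0.218, 0.274 and 0.409 FPKM. All its libraries lay under 1 FPKM, by 0.64 on the log2 scale (mean difference -0.64, SE 0.04, limma adjusted p = 1.0e-06). At the implied depth this stood for about 12 to 25 reads per library with the longest coding transcript. Its relative SD of 24.97% was close to the 23.3% that counting that many reads gives, so differences between libraries in Gpc5 were not detectable at this depth. Gpc6 was at 5.93, 5.63, 8.03, 6.91 and 6.92 FPKM, above Gpc5 in 5 of 5 libraries (Gpc5 minus Gpc6, -2.57 ± 0.20 on the log2(FPKM + 1) scale, exact p = 0.063). The ratio of their means was 23.2.

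The start regions of Gpc3, the highest member, of Gpc4, its neighbour at a lower level, and of Gpc5, the lowest member, are shown so that the letters before 3 genes of unequal transcript level can be compared. Transcription from them was not measured here. Each is 300 bases from RefSeq on GRCm38.p6, from 250 before to 50 after the annotated start, 5′ to 3′ on the strand of the gene. Capitals mark GGGCGG or its reverse complement CCGCCC, the GC box bound by Sp factors. Positions are chrX:52613925-52614224 (minus) for Gpc3, chrX:52164874-52165173 (minus) for Gpc4 and chr14:115091965-115092264 (plus) for Gpc5.
Gpc3: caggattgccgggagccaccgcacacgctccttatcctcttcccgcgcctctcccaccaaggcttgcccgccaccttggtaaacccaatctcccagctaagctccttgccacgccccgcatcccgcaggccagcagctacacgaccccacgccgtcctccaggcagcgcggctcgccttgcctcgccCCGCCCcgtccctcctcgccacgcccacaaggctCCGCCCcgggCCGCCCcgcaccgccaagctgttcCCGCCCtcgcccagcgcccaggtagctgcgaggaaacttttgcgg
Gpc4: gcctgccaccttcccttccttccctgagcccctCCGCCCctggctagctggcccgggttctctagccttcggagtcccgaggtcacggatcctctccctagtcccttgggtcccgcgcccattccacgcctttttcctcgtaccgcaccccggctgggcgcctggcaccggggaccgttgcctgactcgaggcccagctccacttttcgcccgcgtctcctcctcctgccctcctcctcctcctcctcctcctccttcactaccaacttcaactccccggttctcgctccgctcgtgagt
Gpc5: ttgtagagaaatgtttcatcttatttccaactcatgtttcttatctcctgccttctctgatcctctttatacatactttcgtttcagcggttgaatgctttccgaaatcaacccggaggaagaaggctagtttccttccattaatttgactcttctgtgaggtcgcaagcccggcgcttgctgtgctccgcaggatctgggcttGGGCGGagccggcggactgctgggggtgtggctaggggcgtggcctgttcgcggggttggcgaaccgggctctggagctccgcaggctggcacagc

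The table of promoters held 7 of the 10 members. The GC box, counted on both strands with overlaps allowed, was found 4 times in the Gpc3 window and once in each of the Gpc4 and Gpc5 windows. The windows of Gpc2, Sdc1 and Sdc3 held it 3 times and that of Sdc4 4 times, so the count did not follow the order of levels. All 7 windows held it, as did 35.7% of the 32851 promoter windows of this length. The Gpc3 window held 30 CG dinucleotides, the Gpc4 window 22 and the Gpc5 window 17, beside a median of 7 over all promoters. The syndecan windows ran from 14 for Sdc1 to 44 for Sdc3, a low gene, with 22 for Sdc4, so within the families the number of CG dinucleotides did not follow the order of levels. The letters TATAAA (either strand), in 13.6% of all promoters, were found in the Gpc5 window alone among the 7, and CCAAT (either strand), in 37.4% of all promoters, in those of Gpc2, Gpc3 and Sdc1.

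Gpc1, the main glypican of the adult nervous system and a coreceptor for FGF and Slit proteins (ENSMUSG00000034220, chromosome 1, 92831645 to 92860779, plus strand), had the next highest glypican level. It was at 13.3, 14.6, 18.4, 15.3 and 17.8 FPKM, lowest in replicate 1 and highest in replicate 3, as Gpc3 was. In mean, 15.9 ± 2.14 FPKM, it was 7.64% of the glypican sum. The gene overlaps exons of Ankmy1 on the other strand, which was at 0.0654 FPKM in mean, and 22.0% of the 75-base windows of its coding transcript also occur in an Ankmy1 transcript.

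Gpc2, called cerebroglycan, is a glypican of the developing nervous system (ENSMUSG00000029510, chromosome 5, 138273655 to 138280005, minus strand). It was at 3.09, 3.27, 2.13, 1.90 and 3.03 FPKM, with replicates 3 and 4 lowest, the libraries in which Gpc3 was highest. Its mean of 2.68 ± 0.62 FPKM exceeded 1 FPKM by 0.86 (log2 scale, SE 0.11, limma adjusted p = 0.00014). On the same strand the annotated coding gene Gm43720 shares 86.3% of the 75-base windows of the Gpc2 coding transcripts. How the authors' counting divided such reads is not given in the sources used here, so the Gpc2 level is uncertain.

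The syndecans were more even. Sdc4, a syndecan of focal adhesions found in most tissues (ENSMUSG00000017009, chromosome 2, 164424247 to 164443887, minus strand), was at 25.9, 30.8, 25.8, 24.8 and 23.9 FPKM. Replicate 2 stood apart as the highest, and the other 4 lay within 2 FPKM of each other. Sdc2, first described from fibroblasts as fibroglycan (ENSMUSG00000022261, chromosome 15, 32920723 to 33034935, plus strand), was at 17.9, 22.8, 25.97, 27.4 and 24.1 FPKM, lowest in replicate 1. The ranges of Sdc4 and Sdc2 overlapped, and Sdc4 was the higher in 2 of 5 libraries (0.15 ± 0.29 on the log2 scale, exact sign-flip p = 0.5).

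Sdc1, the syndecan typical of epithelia (ENSMUSG00000020592, chromosome 12, 8771323 to 8793715, plus strand), was at 14.8, 17.7, 22.3, 18.1 and 19.6 FPKM. Its ranges overlapped with those of Sdc2 and Gpc1, although within every library it lay below Sdc2 and above Gpc1. Sdc3, the syndecan of nervous tissue known as N-syndecan (ENSMUSG00000025743, chromosome 4, 130792537 to 130826319, plus strand), was at 1.43, 1.44, 2.96, 2.02 and 2.91 FPKM. Replicates 3 and 5 were about double replicates 1 and 2, a ratio of 2.07 between the highest and the lowest library. Its mean of 2.15 ± 0.76 FPKM exceeded 1 FPKM by 0.62 (log2 scale, SE 0.14, limma adjusted p = 0.0030). Sdc4 held 33.5% to 43.1% of the summed syndecan FPKM, Sdc2 29.8% to 37.8%, Sdc1 24.3% to 29.0% and Sdc3 1.98% to 4.13%.

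Summed over the family, glypican FPKM was 182, 188, 236, 219 and 213 and syndecan FPKM was 60.03, 72.7, 77.1, 72.3 and 70.6. The glypican sum was the higher in every library, by 1.56 ± 0.10 on the log2 scale, a ratio of 2.94 (exact sign-flip p = 0.063). That order rested on Gpc3. Without the highest gene of each family, Gpc3 and Sdc4, the difference was -0.28 ± 0.16, with the syndecan sum higher in 5 of 5 libraries (exact p = 0.063).

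Ordered by mean, the members ran from Gpc3 through Sdc4, Sdc2, Sdc1, Gpc1, Gpc4, Gpc6, Gpc2 and Sdc3 to Gpc5. Of the 45 pairs, 43 had the same direction in all 5 libraries (exact sign-flip p = 0.063, Benjamini-Hochberg adjusted 0.0654 over the 45 pairs), so no pair could pass 0.05. The exceptions were Sdc4 with Sdc2, above, and Gpc2 with Sdc3, in which Gpc2 was higher in 3 of 5 (0.24 ± 0.51, exact p = 0.438, adjusted 0.447). Replicates 1 and 2 lay highest for both of those differences. Among the 9 neighbours in the order, Gpc3 over Sdc4 was the widest step on the log2(FPKM + 1) scale, at 2.66 ± 0.27 with a ratio of means of 6.53. That scale compresses low genes, and by ratio of means Sdc3 over Gpc5 was wider, at 7.48.

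**Figure D2:**
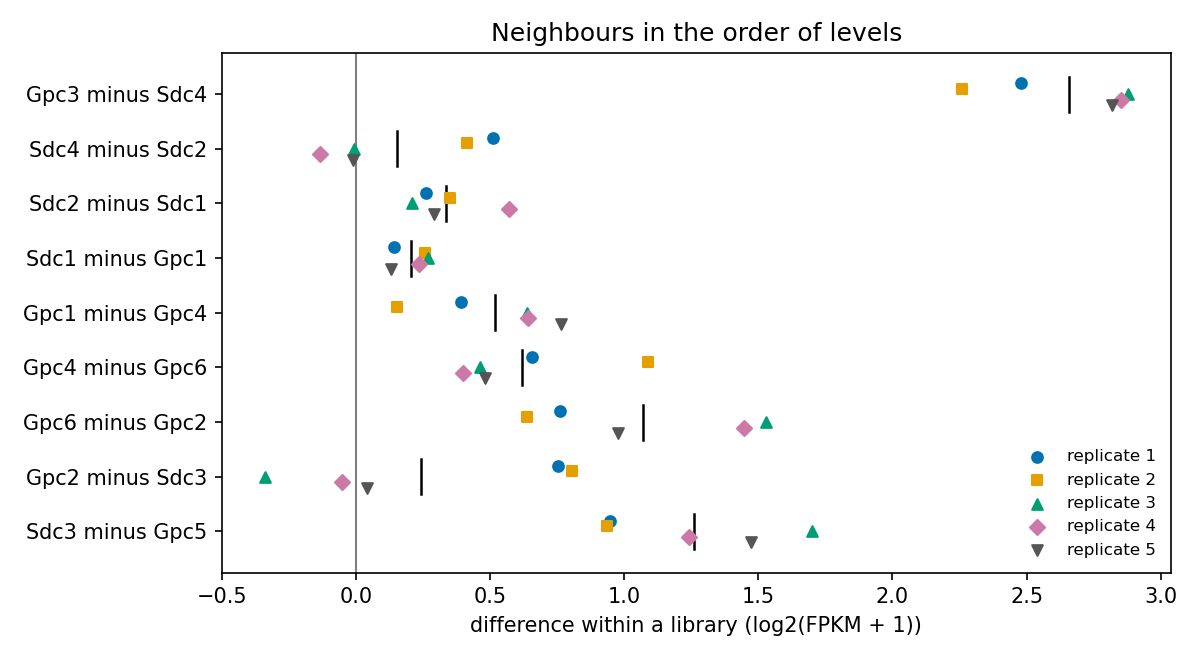
Difference of log2(FPKM + 1) within each library between genes next to each other in the order of mean level; points are replicates 1 to 5, black bars are means and the grey line is no difference. In 7 of the 9 pairs all points lie on the right of the line, while Sdc4 minus Sdc2 and Gpc2 minus Sdc3 cross it.

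Translated from the longest complete coding transcript, the closest pair was Gpc4 and Gpc6, with 63.0% identical residues over the global alignment, and Gpc4 exceeded Gpc6 by 0.62 ± 0.28 on the log2 scale, a ratio of 1.61. The 6 pairs among Gpc1, Gpc2, Gpc4 and Gpc6 had 35.3% to 63.0% identity and mean levels 1.47-fold to 5.92-fold apart. The 8 pairs of these genes with Gpc3 or Gpc5 had 21.0% to 25.9% identity and levels 9.33-fold to 63.9-fold apart. Gpc3 and Gpc5, which form the other branch of the family, shared 37.6%, and their levels, the highest and the lowest of the members, were 596-fold apart. Over 15 pairs of 6 genes these values are a description. Pairs with the highest or the lowest gene tend to lie far apart in level whatever their identity. In the syndecans the closest pair was Sdc2 and Sdc4 at 39.0%, whose levels overlapped. Sdc1 and Sdc3 shared 26.3%, the next highest identity, and their means differed by a ratio of 8.60. Sdc1 shared less with Sdc2 (24.5%) and Sdc4 (23.4%), yet those means differed only by ratios of 1.28 and 1.42. Sdc3 shared 21.7% with Sdc2 and 22.5% with Sdc4, with ratios of 10.99 and 12.2. Within the syndecans the ratio of levels thus did not follow the order of identity. All 4 syndecans ended in the same 4 residues, the part of the tail that PDZ-domain adaptors bind.

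The predicted proteins ran from 198 residues for Sdc4 and 202 for Sdc2 to 645 for Gpc5. Serine-glycine pairs, the places where a glycosaminoglycan chain can be started, numbered 2 in Gpc3, the most abundant transcript, and 3 to 8 in the other members, with 8 in Sdc3. Not every such pair carries a chain. No 75-base window, the read length, was shared between 2 members, so reads could not have been exchanged between them by exact identity. Beyond Gpc1 and Gpc2 the share of windows that other annotated transcripts hold was 5.35% for Sdc3, whose exons overlap genes on the other strand, and at most 1.05% for the rest.

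Most members varied between libraries more than the median gene. The SD of log2(FPKM + 1) exceeded 0.16, the median over the 10983 genes that averaged 1 FPKM or more, in 8 of the 10. Sdc3 had the largest, 0.35, above that of 91.7% of those genes, followed by Gpc2 at 0.25 (79.3%) and Sdc2 at 0.23 (73.7%). Sdc1 exceeded 67.9% of them, and Gpc1, Gpc3, Gpc4 and Gpc6 lay nearer the median, above 57.5% to 60.1%. Sdc4 (0.13) and Gpc5 (0.08) were the exceptions. The scale compresses low genes such as Gpc5, which averaged under 1 FPKM and so is not among those genes. Apart from Gpc5, the relative SD of the FPKM was 2.87 to 11.1 times the counting error at the implied depth. That error, taken with the longest coding transcript, was 1.09% to 8.04% of the level. Shorter transcripts would mean fewer reads and a larger error. With its shortest, Sdc3 would stand for about 14.5 to 29.9 reads per library in place of 156 to 321.

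Replicate 1 was the lowest library for 5 of the 10 genes (Gpc1, Gpc3, Sdc1, Sdc2 and Sdc3) and lay above the gene's own mean for 1, Gpc2. Of all 10983 genes 35.0% were lowest in replicate 1, which also had the lowest FPKM sum, 747034 beside 793559 to 847625 in the others. Rescaled by the sum or by the median ratio, 3 members were lowest there (Gpc1, Sdc1 and Sdc2), while Gpc3 and Sdc3 were lowest in replicate 2. Of all genes 18.5% (sum) and 27.8% (median ratio) were then lowest in replicate 1. Replicate 3 was the highest library for 5 (Gpc1, Gpc3, Gpc6, Sdc1 and Sdc3), where 21.9% of all genes were highest. It was so for these 5 after both rescalings, and for Sdc2 as well after rescaling by the sum. Of all genes 24.4% (sum) and 22.8% (median ratio) were then highest in replicate 3. In replicate 1 the deviation from the gene's own mean on the log2 scale was -0.37 for Sdc2, -0.34 for Sdc3 and -0.19 for Gpc3, and in replicate 3 it was 0.14, 0.36 and 0.20. Gpc2 went the other way, with 0.17 in replicate 1 and -0.22 in replicate 3, and Gpc2, Gpc4 and Sdc4 were highest in replicate 2, at 0.23, 0.27 and 0.23.

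The marker lists also differed between libraries. Each median below covers only the genes of its list that averaged 1 FPKM or more. Besides mesenchyme, these were 11 neural progenitor, 7 neuron, 5 neural crest, 6 surface ectoderm, and 6 endothelial and blood genes. The median deviation of the 11 mesenchyme markers that averaged 1 FPKM or more was -0.83, -0.36, 0.47, 0.23 and 0.35, lowest in replicate 1 and highest in replicate 3. The neural crest median ran likewise from -0.59 to 0.43 in those libraries. In the same libraries the neural progenitor median went from 0.20 to -0.22 and the neuron median from 0.19 to -0.32, the direction of Gpc2. Of the genes in these medians, Gap43 rose from 11.9 FPKM in replicate 1 to 23.4 in replicate 3. Vim rose from 46.8 to 57.4 and Nes from 3.72 to 4.07, while the rest fell. The other libraries matched less: in replicate 4 Gpc2 lay at -0.33, the progenitor median at -0.09 and the neuron median at 0.001. In replicate 5 these were 0.15, -0.02 and -0.11. The surface ectoderm and neuron medians were highest in replicate 2, at 0.35 and 0.22, as were Gpc2, Gpc4 and Sdc4. The marker medians were not rescaled, and after rescaling by the sum Gpc2 was highest in replicate 1. The surface ectoderm median was also high in replicate 3, at 0.24, where Sdc4 lay at -0.02. The endothelial and blood median was -0.42, -0.36, 0.10, 0.68 and 0.24, highest in replicate 4, as was Sdc2 before rescaling by the sum. The part of these markers' cells in the members' levels was not tested.

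**Figure D3:**
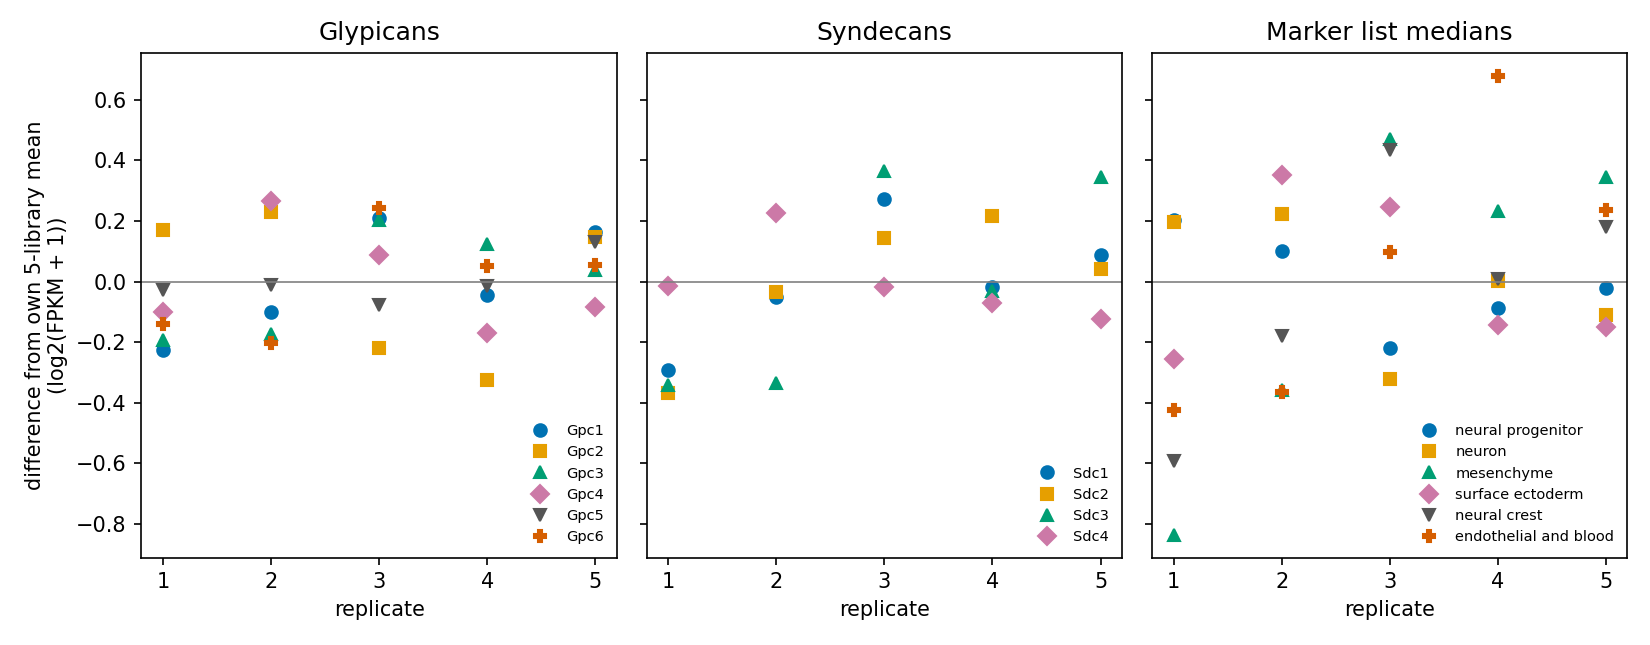
Difference of log2(FPKM + 1) from the 5-library mean, by replicate, for each glypican (left), each syndecan (middle) and the median of each marker list (right). Medians cover the genes of a list that averaged 1 FPKM or more. Sdc3 spans -0.34 to 0.36, and the mesenchyme median spans -0.83 to 0.47, both low in replicates 1 and 2 and highest in replicate 3.

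The genes most like the 2 most variable members were taken from all 10983 genes by the root mean square difference of their deviations over the 5 libraries. For Sdc3 they were Tead1 (0.03), Gna12 (0.03) and Dusp9 (0.03). Tead1, a transcription factor of the Hippo pathway, was at 5.16, 5.19, 9.05, 6.59 and 8.46 FPKM. For Gpc2 they were Slco1a6 (0.06), Zfp106 (0.06) and Axl (0.06). Slco1a6, an organic anion transporter, was at 5.26, 5.97, 4.21, 3.98 and 5.76 FPKM. Such matches over 5 points are a description, and all genes share the same libraries and depth.

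The genes that build the chains were read by the same test, against the same 52.3% above and 41.4% below. In the list of linker and precursor enzymes 7 of 10 lay above 1 FPKM and 2 below, with Ugdh, which makes the glucuronic acid donor, at 35.3 ± 2.25 FPKM and the xylose phosphatase Pxylp1 at 26.4 ± 2.91. Xylt1, which attaches the first sugar to the core protein, was the lowest at 0.40 ± 0.08 and called below, and its homolog Xylt2 was called neither way at 1.21 ± 0.42. The other gene called below was B3galt6, which adds the second galactose of the linker, at 0.52 ± 0.26 FPKM. Of the 5 Ext and Extl genes 4 lay above and none below. Extl2 was at 28.2 ± 3.12 FPKM, Ext1 at 18.6 ± 2.97 and Extl1, called neither way, at 1.32 ± 0.56. Ext2, the partner of Ext1 in the chain polymerase, was at 1.91, 1.5, 4.43, 1.41 and 2.39 FPKM, highest in replicate 3.

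Of the 9 genes for N-sulfation, epimerisation and sulfate donors 7 lay above and 2 below. The sulfate donor synthase Papss1 was at 46.2 ± 4.17 FPKM and the epimerase Glce at 22.4 ± 2.80. Ndst4, an N-sulfotransferase, was the lowest at 0.180, 0.0471, 0.00882, 0.00642 and 0.0593 FPKM. The O-sulfotransferases were divided: 4 of 11 lay above and 6 below, with a list median of -0.71 from 1 FPKM on the log2 scale. The 6-O-sulfotransferases Hs6st2 and Hs6st1 were the highest at 7.10 ± 0.76 and 5.71 ± 0.92 FPKM. Hs3st2, which adds the rare 3-O-sulfate, was listed at 0, 0.0184, 0, 0.0170 and 0 FPKM.

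In the list of extracellular editing, release and shedding genes 6 of 12 lay above 1 FPKM, close to the 52.3% over all genes. The 3 below were a smaller share than the 41.4% over all genes, and 3 were called neither way. The list median was 0.47 from 1 FPKM on the log2 scale, beside 0.45 for all genes tested. Sulf1 and Sulf2, which remove 6-O-sulfates from finished chains, were at 56.6 ± 6.64 and 42.1 ± 7.04 FPKM, above the transcript of every listed 6-O-sulfotransferase in every library. The protease Adam17, which can shed syndecans, was at 39.5 ± 2.71 and Furin, which can cut glypicans, at 18.8 ± 3.02. Notum, an extracellular hydrolase that removes the lipid of Wnt proteins, was the lowest at 0.06 ± 0.03 FPKM.

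Other proteoglycans with heparan sulfate were called above in 4 of 7 and below in 3. Agrn, a proteoglycan of basement membranes, was at 18.8 ± 2.05 FPKM and Col18a1 at 10.6 ± 0.50, both far below Gpc3, and Srgn, of blood cells, was the lowest at 0.08 ± 0.09. Of the chondroitin sulfate branch, which competes for the same linker, 4 of 10 genes lay above and 4 below, with Chsy1 at 21.5 ± 2.90 FPKM and Dse at 8.34 ± 1.61. Chsy3 was listed at 0.128, 0.0559, 0, 0.155 and 0.0634.

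The 9 genes of GPI anchoring, which glypicans need to reach the surface, all lay above 1 FPKM, from Pgap3 at 1.93 ± 0.34 to Pigk at 77.7 ± 8.25 and Gpaa1 at 82.7 ± 14.8. Among 10 partners of the syndecan tail 7 lay above and 2 below. Sdcbp, or syntenin, the PDZ adaptor of that tail, was at 191 ± 18.2 FPKM, Actn4 at 31.6 ± 3.30 and the homolog Sdcbp2 at 0.61 ± 0.25. Of 6 receptors for proteoglycans 3 lay above and 3 below, with the receptor phosphatases Ptprf at 30.7 ± 4.20 and Ptprd at 4.00 ± 0.84 FPKM, and Gpr158 listed at 0.0129, 0, 0, 0 and 0.0248. Over the 10 pathway lists 55 of 89 genes were called above and 25 below.

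**Figure D4:**
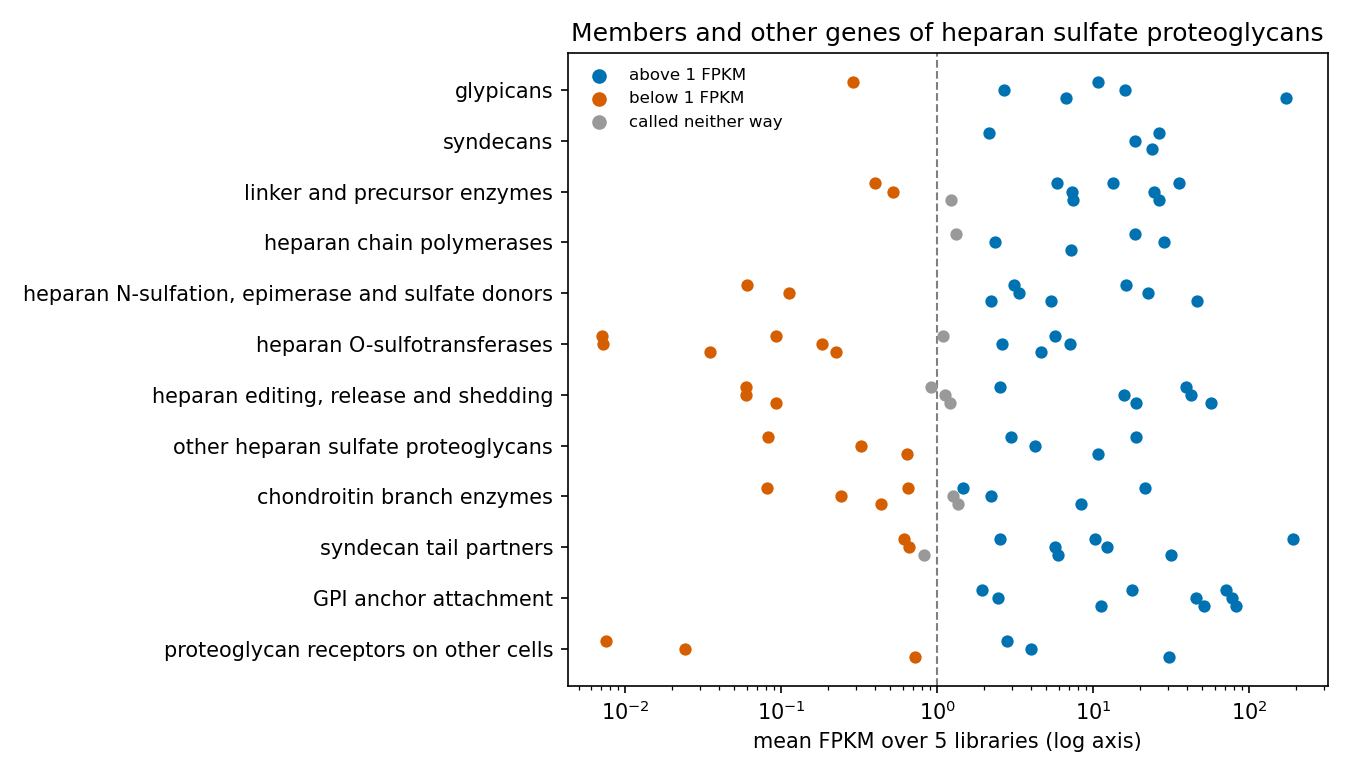
Mean FPKM over 5 libraries on a log axis for every gene of the 2 families and of the 10 pathway lists, coloured by whether the gene was called above, below or neither way against 1 FPKM (dashed line). Gpc3 and Sdcbp are the points furthest to the right, at 171 and 191 FPKM, and the O-sulfotransferases hold the most genes called below, 6 of 11.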

How the data were processed

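Total RNA was made into full-length cDNA from a tailed poly-dT primer, amplified, sheared and sequenced as single reads of 75 bases, per the labels' protocols. No molecular identifiers or strand are stated. The authors deposited a table of FPKM, with 1 column per library, and per the submitters' processing notes CASAVA 1.8, cutadapt, TopHat2 2.0.11, Cuffdiff 2.2.1 and mm10 were used. The annotation release is not given in the sources used here.

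Columns were matched to samples by replicate number. limma 3.58.1 (R 4.3.3), with a variance trend, tested the mean of log2(FPKM + 1) of each gene above 0 in at least 1 library against 1 FPKM, and was tested on simulated data. Members were compared by exact sign-flip permutation over 32 sign patterns. The pseudocount understates differences of low genes. Depth was read from single-transcript genes under 0.15 FPKM and over 800 bases, less 200 bases per transcript (207 to 281 of 372 to 535 genes per library shared the spacing), so it is rough, and covers counting error only. Whole reads were not recovered, so no count test was used. Places, transcripts and translated proteins came from GENCODE M21, in place of the RefSeq proteins that had been planned, and promoters from RefSeq.

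Members and lists were chosen with earlier results of these data known. Named were all members, the 2 highest and the lowest gene of each pathway list, the highest of each marker list, and the 3 genes most like each of the 2 members of largest SD. Ankmy1, Gm43720, Ext2, Xylt2, B3galt6, Adam17, Furin, Gap43, Vim, Nes and the markers named as below were added after their values were seen. Alternatives were pseudocounts of 0.5 and 0.1, 2 rescalings, levels of 0.5 and 2 FPKM, 2 filters, 2 variance settings and leaving out each library.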

Additional observations from a re-analysis of the deposited data

Results flagged for a closer look

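Of 43 results, 5 had 1 library far from the other 4, by the gap to the nearest library as a share of the whole range, where chance flags about 1 in 20. For Sdc4 the gap was 0.714 of the range, with replicate 2 highest at 30.8 FPKM. For the summed glypicans minus the summed syndecans it was 0.91, with replicate 2 lowest at 1.37 on the log2 scale, and the mean without replicate 2 was 1.60. For Papss1 it was 0.919, with replicate 1 lowest at 38.8 FPKM. For Extl1 it was 0.714, with replicate 1 highest at 2.28 FPKM. For Srgn it was 0.864, with replicate 4 highest at 0.241 FPKM.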

How the results depend on the processing

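For the members, 9 above and 1 below 1 FPKM, 130 of 130 gene values under the same level and 19 of 20 under another level kept their direction and call. The exception was Sdc3, 0.04 above a level of 2 FPKM on the log2 scale and not called (limma adjusted p = 0.795). The 43 pairs with 1 direction were 43 without any 1 library and at both other pseudocounts. Neither change can reverse a difference within a library, so this count could not have fallen and is no check. The glypican minus syndecan sum was 1.54 to 1.60 without 1 library and reversed to -0.28 without Gpc3 and Sdc4. Rescaling to a sum of 1000000 FPKM raised the members by 0.08 (Gpc5) to 0.32 (Gpc3) on the log2(FPKM + 1) scale, put Crk in place of Tead1 and Ccnl1 in place of Axl among the genes most like Sdc3 and Gpc2, and left 0 syndecan tail partners below the level. Over all 19706 genes tested 7726 were then below, beside 8167 before rescaling.

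Pathway counts below moved with the level. Against 0.5 FPKM they were 0 for linker enzymes, 0 for tail partners and 2 for the chondroitin branch. Against 2 FPKM they were 1 for the Ext and Extl genes, 6 for editing genes and 7 for the chondroitin branch, which then had 2 above. Over all 19706 genes tested, 6878 were below 0.5 FPKM, 8167 below 1 FPKM and 9575 below 2 FPKM, where 9034 were above. Testing only genes that averaged 0.1 FPKM or more, which takes low genes out (3495 of 15007 genes below in all, beside 8167 of 19706), left 1 N-sulfation gene, 2 O-sulfotransferases, 0 editing genes and 1 receptor below. Against 2 FPKM Extl1 reversed to -0.40 and Pgap3 to -0.0408, and against 0.5 FPKM Sdcbp2 reversed to 0.0854. No paired analysis was possible because there is 1 group. At the implied depth Gpc5 rests on few reads.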
